A study of Rattus norvegicus with 24 samples.

Results

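Endothelial cells line the vessels and chambers of the heart, and 9 genes that mark them were followed through 24 left ventricles of the rat: Vwf, Pecam1, Cdh5, Kdr, Flt1, Tek, Tie1, Cd34 and Nos3. They were found by their symbol in the non-normalized array table, with the suffix _predicted allowed, and are 9 named genes beside the 10392 genes tested in all. Of the 9 genes, 7 had a probe, and 6 were detected (detection p under 0.05) on at least 6 of the 24 arrays. Vwf, Tie1 and Nos3 were detected on 24 arrays, Tek on 22, Cd34 on 15 and Flt1 on 14. The single Cdh5 probe was detected on 0 of 24 arrays, with a lowest detection p of 0.114 and a median of 0.434, so it was not well above background in any group and is not compared. No probe carried the symbol Pecam1 or Kdr, and these genes are not analysed here.

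The samples came from male Wistar rats of 300 to 350 g kept on a reversed light cycle, with procedures 3 to 6 hours into the dark phase. Animals were randomised to a sham operation or to ligation of the left main coronary artery, which injures the ventricle and brings on heart failure, and were fed from then on either normal chow or a saturated fat chow. Fat supplied 60% of the calories of that chow, as palmitic acid (25%), stearic acid (33%) and oleic acid (33%). The 4 groups, named sham or ligated with chow or fat below, held 6 animals each, and each animal gave 1 array of total left ventricular RNA. The sources used here give neither the length of feeding nor the region of the ventricle relative to the ligated artery.

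Endothelial cells are marked by surface receptors and adhesion proteins, some of which blood cells also carry. Vascular endothelial growth factor acts on the receptor tyrosine kinases encoded by Kdr and Flt1, of which Flt1 binds the ligand tightly and signals weakly. Angiopoietins act on the receptor encoded by Tek, with the product of Tie1 as its partner, and keep mature vessels quiet. Pecam1 and Cdh5 encode junction proteins, and Cd34 encodes a surface sialomucin of capillary endothelium that stromal and blood progenitor cells also carry. Vwf encodes the clotting factor that endothelium stores in Weibel-Palade bodies, and Nos3 encodes the endothelial nitric oxide synthase, which relaxes vessels. Vwf is also made by megakaryocytes.

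RefSeq promoter windows were matched by symbol for 5 of the 9 genes, Kdr, Flt1, Tie1, Cd34 and Nos3. The 250 bases before the gene start are shown for Nos3, the member that varied most between animals, and for Tie1, a receptor gene of ordinary spread, because ETS factors are well known regulators of endothelial promoters. Both lie on the minus strand of GRCr8, Nos3 at chr4:11706582-11706831 and Tie1 at chr5:137304982-137305231. Capitals mark the ETS core GGAA or its reverse complement TTCC.
Nos3: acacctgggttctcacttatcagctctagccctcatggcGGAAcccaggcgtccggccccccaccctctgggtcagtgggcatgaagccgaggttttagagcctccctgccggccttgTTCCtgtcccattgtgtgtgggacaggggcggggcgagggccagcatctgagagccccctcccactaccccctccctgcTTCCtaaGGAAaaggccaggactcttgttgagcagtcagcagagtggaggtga
Tie1: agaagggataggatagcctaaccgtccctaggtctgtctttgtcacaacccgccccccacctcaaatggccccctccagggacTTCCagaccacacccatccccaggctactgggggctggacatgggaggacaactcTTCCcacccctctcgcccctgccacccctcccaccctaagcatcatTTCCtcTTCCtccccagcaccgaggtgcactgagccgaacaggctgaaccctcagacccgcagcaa
Each window held 4 matches to the core, as did that of Kdr, while that of Flt1 held 3 and that of Cd34 held 1. The core is short, and 93.2% of all 33469 windows of this length held it on either strand. The longer form CAGGAA, which contains the core, was found once in the Nos3 window, in none of the other windows of these genes, and in 24.7% of all windows. The Sp1 letters GGGCGG occurred 3 times for Flt1 and once for each of Kdr, Tie1, Cd34 and Nos3, against 30.5% of all windows. The TATA letters TATAAA occurred once, for Flt1, against 12.9%, and AGATAA was found in none of the windows, against 10.3%. These matches describe the letters only.

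Array background split the 24 arrays into 12 with a median signal of undetected probes of 132.2 to 148.5 and 12 with 77.1 to 87.5. The labels name no chip or date, and the split rests on these signals. High background was found on 2 arrays of sham chow, 3 of sham fat, 2 of ligated chow and 5 of ligated fat hearts. Low background thus held 1 ligated fat array, that of animal 37. Low-background values for ligated fat hearts rest on that animal, and those over both diets or both surgeries rest on it in part. Between the batches, 20.8% of all genes differed. Of the endothelial genes Flt1 did, at 0.32 higher on the log2 scale on high-background arrays (adjusted p = 0.00195). As a check of the surgery, Nppa, the natriuretic peptide gene that a strained ventricle expresses, was up by 2.71 on chow and by 3.05 on fat (adjusted p = 0.0029 and 0.000984). The cardiomyocyte markers showed the tissue: 15 of 15 with a probe were detected, and the log2 of their summed level lay between 18.86 and 18.95 in every animal. Quantile normalization keeps the brightest probes nearly level between arrays. The sum holds such probes (Tnni3 up to 70382 and Myh7 up to 69049 in raw signal), so this narrow range does not measure cardiomyocyte content.

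Vwf was the endothelial gene that rose after ligation. Its log2 level had a low of 10.38, a median of 10.91 and a high of 10.94 in sham chow hearts, and 10.81, 10.91 and 11.17 in sham fat hearts. In ligated chow hearts it read 10.84, 11.09 and 11.44, and in ligated fat hearts 11.08, 11.27 and 11.72. All 6 ligated animals lay above the sham mean on each diet, yet the ranges overlapped, since the highest sham fat animal stood above the lowest ligated animals of both diets. On chow the sham mean of 10.81 included the low animal 7 (10.38). Ligated chow animals 16 (10.87) and 21 (10.84) lay above that mean but below the sham chow median of 10.91. The group means ran from 10.81 ± 0.22 (SD, n = 6) in sham chow through 10.94 ± 0.13 in sham fat and 11.08 ± 0.22 in ligated chow to 11.31 ± 0.23 in ligated fat, and neighbours in that order overlapped in range.

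Over both diets Vwf was higher in ligated hearts by 0.32 on the log2 scale (SE 0.08, 95% confidence interval 0.15 to 0.49), a 1.25-fold difference, with limma's adjusted p = 0.034 over all 10392 genes. An exact permutation test within diets gave a two-sided p of 0.000309. It was 1 of 6 endothelial genes called, all in the higher direction, against 3.14% of all genes called in this comparison, 2.05% higher and 1.09% lower. On each diet alone the difference was 0.26 on chow (adjusted p = 0.428, exact p = 0.0476) and 0.37 on fat (adjusted p = 0.156, exact p = 0.00649), neither of which passed the test across all genes. The interaction of surgery and diet for Vwf was 0.11 (95% confidence interval -0.24 to 0.46, adjusted p = 0.931).

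The call of Vwf was close to the threshold. It ended when any 1 of 9 animals was left out, namely sham chow animal 7 (adjusted p = 0.0602), sham fat animals 35 (0.0519), 11 (0.0538), 20 (0.0543) and 34 (0.063), ligated chow animals 38 (0.0529), 24 (0.0662) and 4 (0.0509), and ligated fat animal 28 (0.0567), while the difference stayed between 0.28 and 0.34. With the batch as a block it was 0.29 (adjusted p = 0.0437). Within the high-background arrays it was 0.38 (adjusted p = 0.443) and within the low-background arrays 0.24 (adjusted p = 0.613), positive in both and called in neither. In bulk tissue a change in the number of cells of a type and a change in RNA per cell cannot be told apart, for Vwf and for every gene below.

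**Figure D1:**
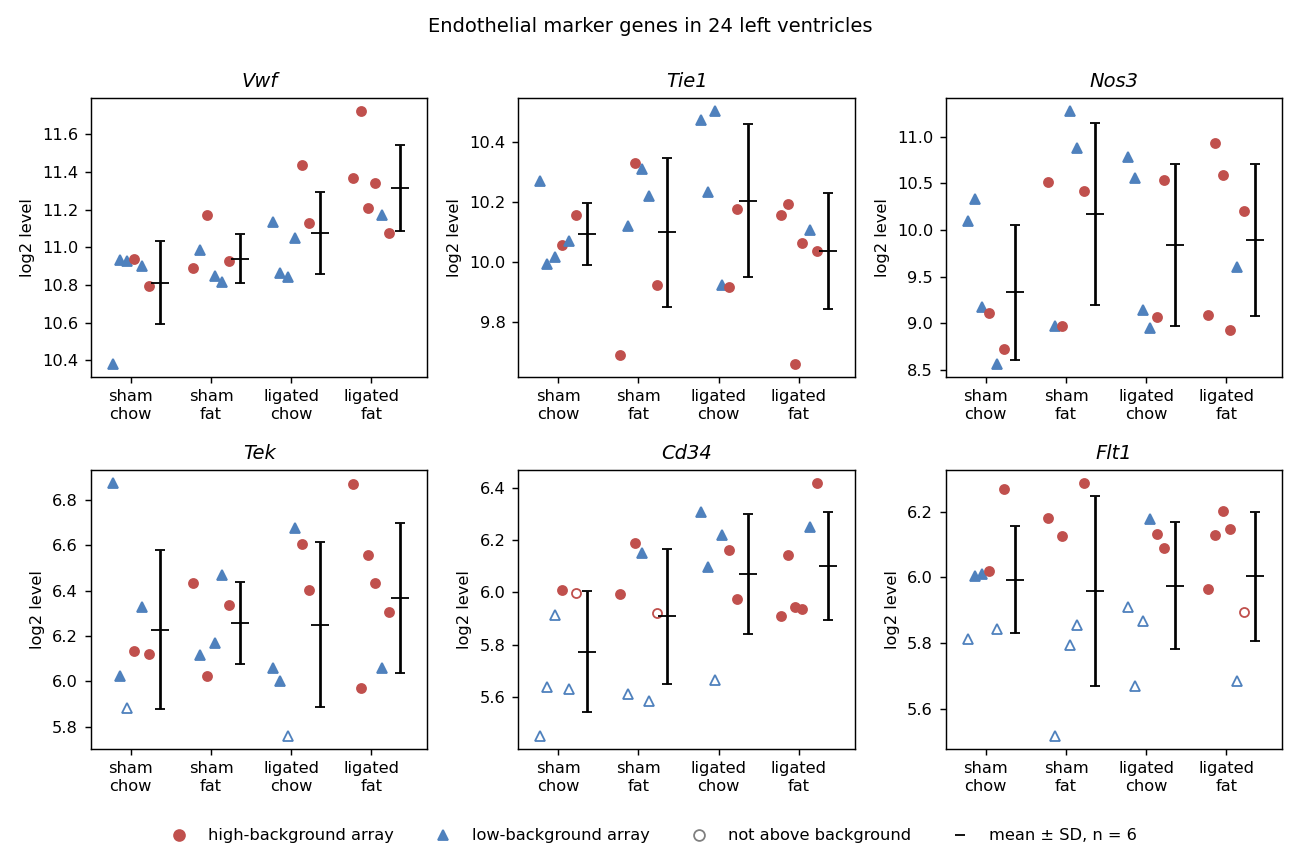
Normalized log2 level of the 6 detected endothelial genes in each of 24 left ventricles, by group, with the mean and SD of 6 animals beside the points. Open symbols mark arrays on which the probe was not above background, and the colour and shape give the array's background batch. Ligated animals sit higher for Vwf, while Nos3 spreads over the widest range within every group.

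Cd34, the sialomucin gene, read higher in ligated hearts on a dim probe and did not pass the test across all genes. Its low, median and high log2 levels were 5.45, 5.78 and 6.01 in sham chow hearts and 5.58, 5.96 and 6.19 in sham fat hearts. They were 5.67, 6.13 and 6.31 in ligated chow and 5.91, 6.04 and 6.42 in ligated fat hearts, and the ranges overlapped throughout. The fitted difference was 0.24 over both diets, 0.30 on chow and 0.19 on fat. The probe was detected in 1 of 6 sham chow, 3 of 6 sham fat, 5 of 6 ligated chow and 6 of 6 ligated fat animals. It thus passed the filter of 6 arrays through the ligated groups, where it read higher, so its ligation differences are a description with no test. Detection also went with the batch, at 10 of 12 high-background and 5 of 12 low-background arrays. The difference over both diets was 0.22 with the batch as a block, 0.05 within high-background arrays and 0.44 within low-background arrays. On chow it was 0.06 and 0.41 within the high and the low batch, and on fat 0.04 and 0.47, or 0.06 on fat with median scaling. The low-batch value on fat rests on 1 ligated fat array.

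The receptor genes showed small differences after ligation, none of which passed the test. Tie1 read 9.99, 10.06 and 10.27 (low, median, high) in sham chow, 9.69, 10.17 and 10.33 in sham fat, 9.92, 10.20 and 10.50 in ligated chow, and 9.66, 10.08 and 10.19 in ligated fat hearts. The groups overlapped almost wholly, and over both diets Tie1 differed by 0.02 between ligated and sham hearts (95% confidence interval -0.15 to 0.20, adjusted p = 0.948). Tek, the angiopoietin receptor gene, read 5.88, 6.13 and 6.88 in sham chow, 6.02, 6.25 and 6.47 in sham fat, 5.76, 6.23 and 6.67 in ligated chow, and 5.97, 6.37 and 6.87 in ligated fat hearts. Its difference over both diets was 0.07 (95% confidence interval -0.19 to 0.32, adjusted p = 0.873), again with groups that overlapped.

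Flt1 ranged from 5.81 to 6.27 in sham chow, 5.52 to 6.29 in sham fat, 5.67 to 6.18 in ligated chow and 5.68 to 6.20 in ligated fat hearts, with medians of 6.01, 5.99, 6.00 and 6.05. The 4 groups covered nearly the same values, and the fitted difference after ligation was 0.01 (95% confidence interval -0.17 to 0.20, adjusted p = 0.975). The Flt1 probe was detected on 11 of 12 high-background arrays and 3 of 12 low-background arrays. For Tie1, Tek and Flt1 a difference within these intervals could not be told from none with 6 animals a group.

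The fitted difference between ligated and sham hearts over both diets was positive for 6 of 6 endothelial genes, as it was for 46.1% of all genes. This count includes Cd34, which passed the filter through ligated arrays, and Flt1, whose sign turned with the batch as a block (-0.04), with median scaling (-0.02) and within high-background (-0.08) and low-background (-0.02) arrays, so it describes these values only. The sign also turned for Tie1 with array weights (-0.03) and within high-background arrays (-0.01). Within low-background arrays it turned for Tek (-0.17) and Nos3 (-0.22), while Vwf and Cd34 stayed positive in every alternative. The members' median was 0.09 on the log2 scale, or 0.11 over the 3 detected on all arrays, and -0.01 for all genes. On chow alone 5 of 6 were higher (49.6% of all genes, median 0.19) and 0 were called, against 0.472% of all genes called. On fat alone 4 of 6 were higher (46.5% of all genes, median 0.08) and 0 were called, against 0.885%. At an unadjusted p under 0.05 there were 2 members on chow (10.4% of all genes), 1 on fat (11.7%) and 2 over both diets (15.5%). These were Vwf each time, and Cd34 on chow and over both diets. Cd34 is in these counts as a description only, since its probe passed the filter through ligated arrays. Without Cd34 they hold Vwf alone.

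Nos3 stood apart by its spread between animals of the same group. In sham chow hearts its log2 level had a low of 8.56, a median of 9.15 and a high of 10.33, and in sham fat hearts 8.97, 10.46 and 11.28. In ligated chow hearts the values were 8.95, 9.84 and 10.78, and in ligated fat hearts 8.93, 9.90 and 10.93. Every group held animals below 9.2 and above 10, and the full range of 8.56 to 11.28 is 6.56-fold. The SD within groups was 0.85, larger than that of 99.4% of the genes tested, of which 64 varied more, while the median gene had an SD of 0.24. Vwf (0.20), Tie1 (0.21), Flt1 (0.22), Cd34 (0.23) and Tek (0.32) varied far less.

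The Nos3 levels left a gap in the middle of their range. The levels of 11 animals lay between 8.56 and 9.18, 1 animal read 9.61, and 12 animals lay between 10.09 and 11.28. Of the 12 upper values, 2 were from sham chow, 4 from sham fat, 3 from ligated chow and 3 from ligated fat hearts. Low and high values occurred in both background batches, since Nos3 ran from 8.72 to 10.93 on high-background arrays and from 8.56 to 11.28 on low-background arrays. The spread remained in the authors' normalized intensity (SD 0.75, larger than in 99.7% of genes) and with median scaling (SD 0.85, 99.5%). The probe was detected on every array, at raw signals of 279.8 to 3158.6, so the low animals were above background too.

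**Figure D2:**
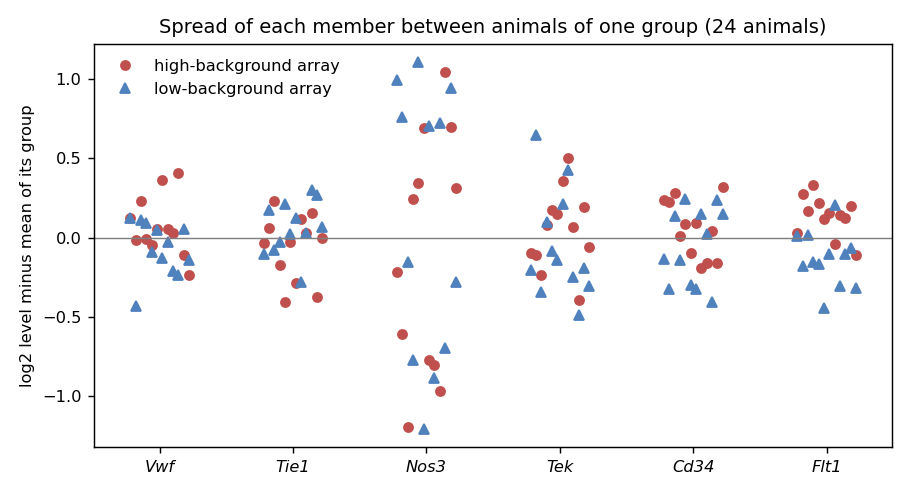
Deviation of each animal from the mean of its own group, on the log2 scale, for the 6 detected endothelial genes in 24 animals, with colour and shape for the background batch. Nos3 deviates by more than 1 in both directions, whereas the other genes lie closer to 0.

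With that spread no difference between groups could be called for Nos3. The fitted difference of ligated minus sham hearts was 0.51 on chow (95% confidence interval -0.41 to 1.42, adjusted p = 0.76) and -0.28 on fat (-1.20 to 0.64, adjusted p = 0.855), with an interaction of -0.79 (-2.09 to 0.51, adjusted p = 0.904). With 1 animal left out the value ranged from 0.32 to 0.71 on chow and from -0.52 to -0.06 on fat. Within high-background and low-background arrays it was 0.88 and 0.32 on chow and -0.02 and -0.77 on fat, the last from 1 ligated fat array. Over both diets the difference was 0.11 (adjusted p = 0.927). In sham hearts fat chow went with a 0.84 higher level, 1.79-fold, whose interval of -0.08 to 1.75 included 0 (adjusted p = 0.87, exact p = 0.108), and 4 of 6 sham fat animals lay above the sham chow mean. In ligated hearts the difference between diets was 0.05 (-0.87 to 0.97, adjusted p = 0.979).

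The diet comparison called 0 of the 6 endothelial genes in sham hearts, in ligated hearts and over both surgeries, against 0.0192%, 0.00962% and 0.0577% of all genes called (2, 1 and 6 genes). The fitted difference was positive for 5, 5 and 4 of the 6 genes in these comparisons, against 50.6%, 46.8% and 48.3% of all genes. At an unadjusted p under 0.05 these comparisons held 0, 0 and 1 member, against 5.97%, 9.64% and 9.22% of all genes. The 1 member was Vwf, which over both surgeries was 0.18 higher on fat chow (SE 0.08, 95% confidence interval 0.01 to 0.36, adjusted p = 0.528, exact p = 0.0338). Its difference was 0.13 in sham hearts (adjusted p = 0.981) and 0.24 in ligated hearts (adjusted p = 0.519), and in both surgeries 6 of 6 fat-fed animals lay above the chow mean. The count in sham hearts depends on chow animal 7, whose low value of 10.38 entered the chow mean of 10.81. The lowest sham fat animal stood only just above that mean, and the medians of both sham groups were 10.91. In sham hearts the Vwf difference ranged from 0.04 to 0.15 with 1 animal left out. In ligated hearts, where high background was found on 5 of 6 fat and 2 of 6 chow arrays, it was 0.15 with the batch as a block and 0.06 within high-background and 0.20 within low-background arrays. The low-background value rests on 1 fat array.

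Tie1 was the member with a negative difference in ligated hearts, by -0.17 on fat chow (95% confidence interval -0.42 to 0.08, adjusted p = 0.627, exact p = 0.227), where 6 of 6 animals lay below the chow mean. That value was -0.10 with the batch as a block, -0.03 within high-background and -0.18 within low-background arrays, and it ranged from -0.23 to -0.09 with 1 animal left out. The low-background value rests on 1 fat array here too. Over both surgeries the fitted differences of fat against normal chow were 0.44 for Nos3 (adjusted p = 0.631), 0.08 for Cd34 (0.765), 0.07 for Tek (0.852), 0.00 for Flt1 (0.995) and -0.08 for Tie1 (0.744). The members' median was 0.08 against -0.01 for all genes. The interaction was positive for 3 of 6 members (47.6% of all genes). It called 0 of 6 members, and limma called 0 of all genes there (percent called 0), with 0 members and 5.42% of all genes (563) at an unadjusted p under 0.05.

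**Figure D3:**
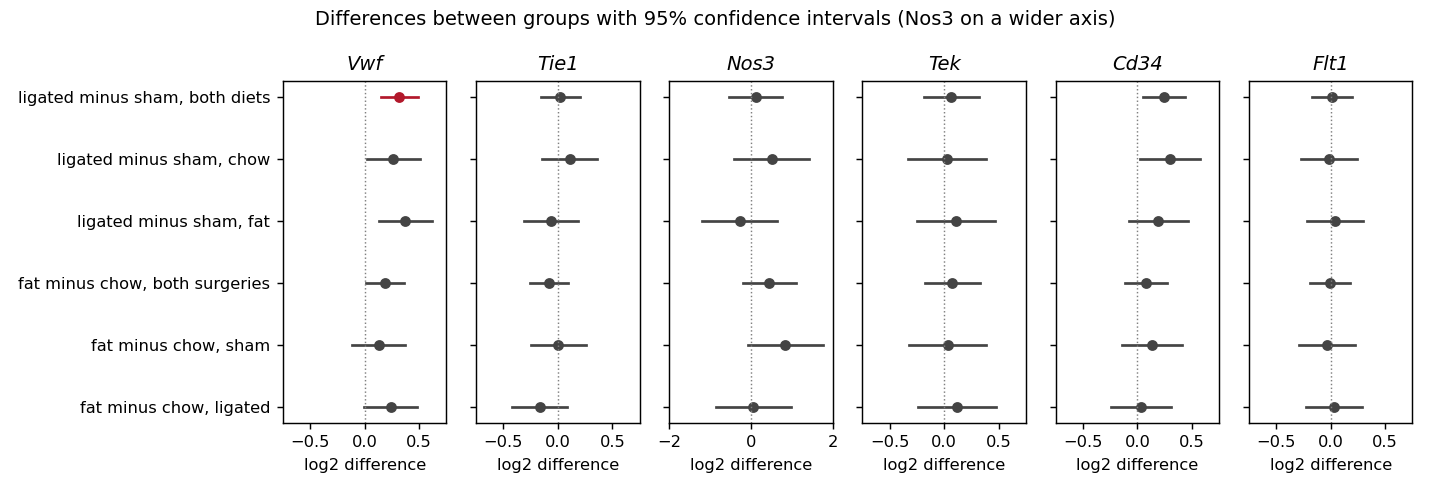
Fitted log2 differences of the 6 detected endothelial genes with 95% confidence intervals, for ligated minus sham hearts (upper rows) and fat minus normal chow (lower rows). The red interval, for Vwf over both diets, is the one that passed the test across all genes, and the axis of Nos3 is wider than the others.

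No pair of endothelial genes was shown to vary together from animal to animal. All 15 pairs were correlated within each batch of 12 arrays, which made 30 relations, with 100000 permutations each. Pearson's r lay between -0.50 and 0.23 on high-background arrays and between -0.50 and 0.67 on low-background arrays, and 0 passed Benjamini-Hochberg adjustment (lowest adjusted p = 0.161 for r and 0.577 for Spearman's rho). The highest was Vwf with Cd34 on low-background arrays (r = 0.67, permutation p = 0.00536; rho = 0.67, permutation p = 0.0192; r = 0.52 without the 2 samples farthest from the median of Vwf). On high-background arrays the same pair had r = 0.17 (permutation p = 0.601), and after group means were removed it had 0.36 and 0.03 in the low and high batch.

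A mean of the 6 members' batch-centred z scores was set against every other gene over 24 arrays, as a description of likeness. Highest were Smad7 (r = 0.725), the inhibitor of transforming growth factor signalling, Smyd2 (r = 0.697), a lysine methyltransferase gene, Poli (r = 0.673), a DNA polymerase gene, Prkag2 (r = 0.669), a subunit gene of the AMP-activated kinase, and Neil1 (r = 0.668), a DNA glycosylase gene. Poli and Neil1 were detected on 13 and 8 arrays. Smad7 and Prkag2 were themselves called for ligation over both diets, at 0.39 and 0.32 (adjusted p = 0.0262 and 0.0394), while Smyd2, Poli and Neil1 were not. The values were centred by batch and not by group, so likeness between animals cannot be told from a shared group difference. The members' own correlation with this mean, which contains them, ran from 0.126 for Tek to 0.615 for Cd34. These were picked as the highest among the tested genes with an official symbol, and the likeness was not tested.

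Further endothelial markers gave no call over both diets with all 24 arrays at equal weight. Of 26 tested, 19 were higher in ligated hearts over both diets, 0 were called, and the median was 0.05. Among all genes 46.1% were higher and 3.14% called, which also stands beside the ligation counts of the lists below. On chow alone 21 of the 26 were higher (median 0.08, 49.6% of all genes). On fat alone 11 were (median -0.01, 46.5% of all genes). Nearest to the threshold were Tspan7, a tetraspanin gene, at 0.22 (adjusted p = 0.0609, detected on 10 arrays) and Lyl1, a transcription factor gene of blood and vessels, at 0.30 (adjusted p = 0.227). Tspan7 passed when sham chow animal 15 or ligated chow animal 16 or 21 was left out (adjusted p = 0.0402, 0.0372 and 0.0219), and with array weights (adjusted p = 0.0262). Its probe was dim, with a raw signal of at most 250. The groups of the 10 arrays that detected Tspan7 are not given here, so its ligation values carry this limit. Among 11 junction partners 8 were higher and 0 were called (median 0.08), with Pkp4, a plakophilin gene, at 0.18 (adjusted p = 0.108) and F11r, a junctional adhesion molecule gene, at 0.16 (adjusted p = 0.326).

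The capillary transport list held 7 tested genes, Cd36, Fabp4, Aqp1, Car4, Meox2, Tcf15 and Slco2b1. All 7 were lower in ligated hearts over both diets (median -0.08), and 0 were called. The smallest differences were those of Meox2 (-0.02), Aqp1 (-0.03) and Slco2b1 (-0.04). On chow alone 6 of the 7 were lower, and on fat alone 5 were. Car4, the carbonic anhydrase gene of the capillary surface, was at -0.40 (adjusted p = 0.108) and Cd36, the fatty acid transporter gene that cardiomyocytes also express, at -0.32 (adjusted p = 0.125). Car4 passed without ligated chow animal 21 (adjusted p = 0.0258) and with array weights (adjusted p = 0.0204), and Cd36 without ligated fat animal 5 (adjusted p = 0.034).

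The ligands and partners of the receptors were mixed in direction. Of 14 genes of the VEGF pathway 7 were higher and 7 lower, 0 were called, and the median was -0.01. The ligand genes Vegfa and Vegfb were at -0.27 (adjusted p = 0.128) and -0.26 (adjusted p = 0.205), and Vegfa passed without sham fat animal 17 (adjusted p = 0.0481). Of 6 genes of the angiopoietin-Tie pathway 3 were higher and 0 were called (median -0.03), with the ligand gene Angpt1 at -0.29 (adjusted p = 0.158) and the adaptor gene Dok2 at 0.15 (adjusted p = 0.52).

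Called genes stood in the nitric oxide, the Notch and the shear lists. In the nitric oxide pathway, 8 of 14 genes were higher (median 0.01), and Gchfr, whose protein is the feedback regulator of tetrahydrobiopterin synthesis, a cofactor of nitric oxide synthase, fell by 0.37 (log2, SE 0.08, adjusted p = 0.0115). Ddah2, which clears an inhibitor of the synthase, was at 0.12 (adjusted p = 0.52). Among 15 Notch, arterial and venous genes 11 were higher (median 0.05), and Apln, the gene of the peptide apelin, fell by 0.80 (SE 0.14, adjusted p = 0.00179). The connexin gene Gja4 was at 0.20 (adjusted p = 0.127). Among 13 genes of shear response and activation 11 were higher (median 0.14), of which Ptgis, the prostacyclin synthase gene, rose by 0.69 (SE 0.12, adjusted p = 0.00103) and Ptgs2, the inducible cyclooxygenase gene, by 1.29 (SE 0.27, adjusted p = 0.00663).

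The lymphatic list gave 3 of 4 genes higher (median 0.19), with Pdpn, the podoplanin gene, which lung epithelium and fibroblasts can also express, up by 0.39 (SE 0.10, adjusted p = 0.0208). Lyve1, a hyaluronan receptor gene of lymphatic vessels and some macrophages, was at 0.35 (adjusted p = 0.106) and passed without ligated fat animal 18 (adjusted p = 0.0255) and with array weights (adjusted p = 0.0263). The endocardial genes Plvap and Npr3 were at 0.28 and 0.03 (adjusted p = 0.637 and 0.938). Leaving out any 1 of the 24 animals kept the 5 calls of these lists over both diets (Gchfr, Apln, Ptgis, Ptgs2 and Pdpn). The cells that express these 5 genes in bulk ventricle were not tested. Within high-background and low-background arrays all 5 kept their sign and lost the call: Gchfr was at -0.34 and -0.60 (adjusted p = 0.378 and 0.0909), Apln at -0.70 and -0.91 (0.384 and 0.175), Ptgis at 0.69 and 0.69 (0.305 and 0.133), Ptgs2 at 1.04 and 1.63 (0.584 and 0.0929) and Pdpn at 0.31 and 0.42 (0.665 and 0.375). On fat alone Ptgis was up by 0.72 (adjusted p = 0.0383).

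**Figure D4:**
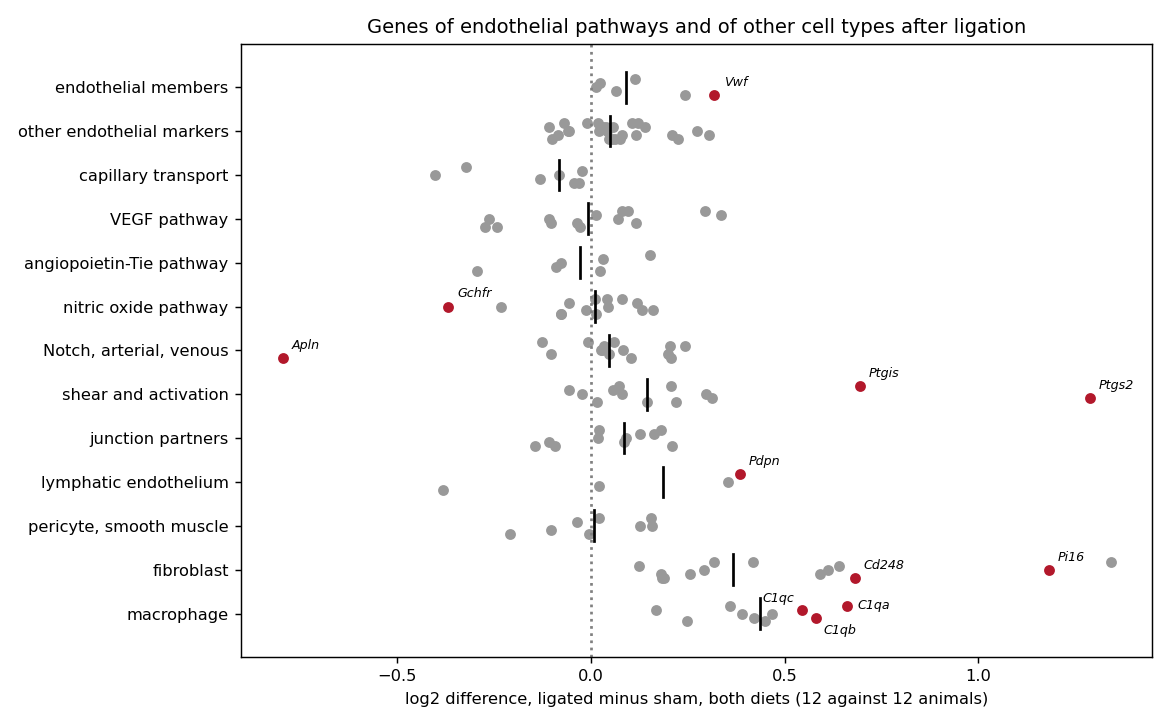
Log2 difference of ligated minus sham hearts over both diets for each tested gene of 13 lists, with a black bar at the list's median and red points for genes that passed the test across all genes. Medians of the endothelial lists run from -0.08 for capillary transport to 0.14 for shear and activation and 0.19 for lymphatic endothelium. Those of the fibroblast and macrophage lists are 0.37 and 0.44. Outside the fibroblast and macrophage lists the red genes are Vwf, Gchfr, Apln, Ptgis, Ptgs2 and Pdpn.

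Markers of other cells moved with ligation beside the rise of Vwf. Fibroblast markers were higher in 14 of 14 (median 0.37), with Pi16 up by 1.18 and Cd248 by 0.68 (adjusted p = 0.00151 and 0.000299). The Pi16 probe was detected on 15 of 24 arrays, at a raw signal of at most 574. The groups of those arrays are not given here, so the Pi16 calls, also that on fat alone, carry this limit. Macrophage markers were higher in 10 of 10 (median 0.44), with the complement genes C1qa up by 0.66, C1qb by 0.58 and C1qc by 0.55 (adjusted p = 0.00209, 0.00116 and 0.00725). Within single batches Pi16, Cd248 and C1qc lost the call in both, C1qa on high-background arrays (adjusted p = 0.083) and C1qb on low-background arrays (adjusted p = 0.0534). The log2 of the summed level of the macrophage list ran from 12.33 to 12.98 in sham chow, 12.11 to 12.78 in sham fat, 12.51 to 13.38 in ligated chow and 12.67 to 13.35 in ligated fat hearts. That of the fibroblast list ran from 15.69 to 16.42, 15.76 to 16.05, 15.91 to 16.38 and 15.88 to 16.66 in the same order, and the groups of both lists overlapped.

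Platelets and megakaryocytes also carry Vwf, and of 8 such markers 3 had a probe and 1, Pf4, was detected on at least 6 arrays. Pf4, the platelet factor 4 gene, was 0.60 higher in ligated hearts (SE 0.19, adjusted p = 0.098) and passed without sham fat animal 20 (adjusted p = 0.0274). Its level ran from 10.77 to 11.46 in sham chow, 10.51 to 12.16 in sham fat, 11.29 to 12.57 in ligated chow and 10.89 to 12.40 in ligated fat hearts. Pericyte and smooth muscle markers were higher in 4 of 8 and erythroid markers in 4 of 6, with 0 called in either list (medians 0.01 and 0.05). Cardiomyocyte markers were higher in 5 of 15 (median -0.05) and adipocyte markers in 1 of 4 (median -0.19), again with 0 called, although Myom1, a sarcomere gene at -0.18 (adjusted p = 0.176), passed with array weights (adjusted p = 0.0425). On chow alone 0 genes of any of these lists were called, against 0.472% of all genes, and the interaction of surgery and diet called 0 of all genes. On fat alone 6 genes of these lists were called, Ptgis, Pi16, Cd248, C1qa, C1qb and C1qc, against 0.885% of all genes. With the batch as a block Ptgis and C1qc lost that call (adjusted p = 0.0692 and 0.0758), and within each batch all 6 did. The call on fat also ended for Ptgis and for C1qc when any 1 of 8 animals was left out (highest adjusted p = 0.0915 and 0.105). It ended for C1qb without sham fat animal 11 or 34 or ligated fat animal 28 or 37 (adjusted p = 0.0516, 0.0622, 0.0529 and 0.063), and for Pi16 without ligated fat animal 28 (adjusted p = 0.0509). The animals were sham fat 17, 35, 11, 12 and 34 and ligated fat 28, 39 and 37 for Ptgis, and sham fat 35, 11, 12 and 34 and ligated fat 28, 18, 39 and 37 for C1qc. With no filter on dim probes Ptgis and C1qc lost the call (adjusted p = 0.0634 and 0.0721), and with only the compared groups in the fit Ptgis, C1qc and Cd248 did (0.0672, 0.0597 and 0.053). The part of these cells in the Vwf result was not tested.

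Fat chow called 0 genes of any of these lists over both surgeries, against 0.0577% of all genes. The smallest p-values were those of Gchfr, at -0.27 (adjusted p = 0.405), Cldn5, a tight junction gene of endothelium, at 0.36 (adjusted p = 0.435), Egfl7, a secreted endothelial factor gene, at -0.21 (adjusted p = 0.453) and Fabp4, a fatty acid binding protein gene of capillaries and adipocytes, at 0.25 (adjusted p = 0.463). Capillary transport genes were higher in 6 of 7 (median 0.09), and nitric oxide pathway genes were lower in 11 of 14 (median -0.10), while 48.3% of all genes were higher. Lists of other cells leaned too, with fibroblast markers lower in 11 of 14, erythroid in 6 of 6 and pericyte and smooth muscle in 6 of 8. Macrophage markers were lower in 5 of 10 and adipocyte markers in 1 of 4. In the VEGF and angiopoietin lists Vegfc was at -0.37 (adjusted p = 0.5) and Angpt1 at -0.28 (adjusted p = 0.5). None of these values passed the test, so no change with diet was shown for endothelial genes at 6 animals a group.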

How the data were processed

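Left ventricular RNA of 24 rats was measured on Illumina rat bead arrays of 50-base probes. The deposited signal is an intensity on a linear scale that the authors took from BeadStudio 3, as the submitters' processing notes state, with a detection p-value per probe, per the file headers. The detection p runs in steps of 1 in 825. A second deposited table holds the authors' normalized intensity, whose method is not stated in the sources used here. The number of arrays limits the precision.

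In R 4.3.3 with limma 3.58.1, neqc corrected background from negative controls inferred from the detection p, added an offset of 16, quantile normalized the arrays and took log2. Of 22517 probes, 10540 were detected on at least 6 arrays, and the brightest probe per gene left 10392 genes. Names came from RefSeq by accession for 6330 probes, by symbol for 4391 and by synonym for 1404, while 10195 kept the file's name and 197 had none. limma fitted 4 group means, and a call needed an adjusted p (Benjamini-Hochberg, all genes) under 0.05. All adjusted p-values of genes are limma's. A difference over both diets or both surgeries is the mean of its pair of simple differences, and exact permutation tests were two-sided and unadjusted (the smallest p of 6 against 6 is 0.00216). The comparisons share groups, so their results are not independent. Each animal is a separate sample. Correlations of arrays within groups were 0.969 to 0.992.

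The members and the gene lists were chosen with earlier results of these data known. Named were all 9 members, in each other list the called genes and the smallest 2 p-values per factor, the 5 genes most like the members, and Nppa. The code was tested on simulated data.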

Additional observations from a re-analysis of the deposited data

Results flagged for a closer look

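Both results below come from 24 combinations of member and group that were examined for a single animal far from the rest, of which chance alone marks about 1 in 20. Sham chow animal 7 was low for Vwf, at 10.38 against a group median of 10.91, and its gap to the nearest animal was 0.747 of the group's whole range. Without it the ligation difference of Vwf over both diets was 0.28 (adjusted p = 0.0602). Ligated fat animal 25 was low for Tie1, at 9.66 against a group median of 10.08, with a gap of 0.703 of the range.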

How the results depend on the processing

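The count of endothelial genes called over both diets was 1, ranged from 0 to 1 with each animal left out, and was 0 within either batch (0 on high-background and 0 on low-background arrays), where 12 arrays enter the fit. In the other comparisons it stayed at 0 under every alternative run. Vwf over both diets kept its direction in all of them, with an adjusted p of 0.0229 to 0.0486 outside the within-batch and left-out-animal fits. The members' median difference for diet in ligated hearts moved from 0.04 to -0.12 with median scaling and -0.121 within low-background arrays. With the 3 members detected on all arrays, an alternative chosen after seeing the data, the median over both diets was 0.113. The exact test of the interaction was not run.

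Signs that turned belong to differences that had not passed. With median scaling these were, for diet over both surgeries, Tek (-0.058), Cd34 (-0.087) and Npr3 (-0.131), for diet in ligated hearts Cd34 (-0.202), and for ligation over both diets Flt1 (-0.017) and Hba-a1 (-0.064). With the batch as a block they were Npr3 (-0.005) for diet, Cd34 in ligated hearts (-0.039) and Flt1 for ligation (-0.041). With array weights they were Tie1 (-0.032) and Flt1 (0) for ligation and Flt1 for diet (0.022). Within high-background arrays they were Myh7 (-0.005), Tie1 (-0.01) and Flt1 (-0.082) for ligation, Ccl21 (-0.019), Npr3 (-0.157) and Flt1 (0.005) for diet, and Vwf (-0.071) for the interaction. Within low-background arrays they were Flt1 (-0.024), Hba-a1 (-0.048), Npr3 (-0.127), Hbb (-0.172), Tek (-0.173) and Nos3 (-0.223) for ligation, and Tek (-0.046), Abcc9 (-0.093), Tnni3 (0.007), Aif1 (0.041) and, in ligated hearts, Nos3 (-0.253) for diet. The cause was not tested. With 1 animal left out, ligation over both diets ranged from -0.031 to 0.046 for Flt1, -0.008 to 0.223 for Nos3, -0.011 to 0.074 for Npr3 and -0.017 to 0.061 for Tie1, and diet from -0.035 to 0.042 for Flt1 and -0.023 to 0.063 for Npr3, and in ligated hearts from -0.051 to 0.077 for Cd34 and -0.159 to 0.242 for Nos3.

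The number of all genes called for ligation over both diets, 326, ranged from 253 to 489 with an animal left out and from 12 within high-background arrays to 665 with array weights. On chow, 49 became 24 to 103 and 0 to 120, and on fat, 92 became 42 to 178 and 4 to 307. For diet, 2 in sham hearts became 1 to 5 and 0 to 6, 1 in ligated hearts became 0 to 7 and 0 to 3, and 6 over both surgeries became 6 to 9 and 0 to 11.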
